A study of Mus musculus with 13 samples.

Results

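The comparison set the duodenum of mutant mice fed a high-fat diet with butyrate against the duodenum of mutant mice fed a normal diet. It used the 3 arrays labelled ViRas HFD+butyrate and the 3 labelled ViRas ND, which are 6 of the 13 arrays of the series. All 13 samples are total RNA of the duodenum, the first stretch of the small intestine, from mice of mixed strain background whose diet began at 5 weeks of age and lasted 22 weeks. The other arrays are 2 of mutants on a high-fat diet without butyrate, 2 of wild-type mice on a normal diet, 2 of wild-type mice on a high-fat diet and 1 of a wild-type mouse on a high-fat diet with butyrate. The mutants, labelled ViRas, carry, as the study is known, an allele that Cre recombinase switches on under the villin promoter, that is, in the epithelium of the intestine. The allele, the sex of the animals, and the dose and route of butyrate are not given in the sources used here.

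Butyrate is a short-chain fatty acid that gut bacteria make from fibre. It is a fuel of the gut epithelium, an inhibitor of histone deacetylases (the enzymes that remove acetyl groups from histones) and a ligand of several receptors on epithelial and immune cells. The duodenal epithelium takes up fat, packs it into chylomicrons and burns part of it, and it tunes its own cholesterol and amino acid synthesis to what the diet brings. The title of the series joins a high-fat diet and the mutation as factors in intestinal tumour formation, and butyrate is the treatment added to that diet. The comparison described here changes fat and butyrate together, so that the share of each cannot be read from it alone.

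Levels are the deposited RMA expression values on a log2 scale, on which a difference of 1 is a doubling. For each of 12393 genes 1 probe set was tested, and array medians ranged from 6.04 to 6.14. On all 13 arrays Xist, an RNA of females, read 10.51 to 11.87. The Y-linked genes Eif2s3y, Kdm5d and Uty read 2.15 to 3.42, so every array read as female. Markers of enterocytes, the absorptive cells, were high throughout, with list means of 12.72 to 12.91 on normal diet and 12.49 to 12.98 with butyrate. Acinar pancreas markers, digestive enzymes of the neighbouring gland, had list means of 11.74, 6.40 and 12.97 on normal diet arrays 1, 2 and 3, and of 6.88, 10.59 and 5.93 on butyrate arrays 1, 2 and 3. Their median difference was -2.59 with 0 of 15 passing. The part of pancreatic, gastric and fat tissue in the results was not tested beyond the values with the acinar mean as a covariate given below. The gastric and Brunner gland list had a median difference of -0.63, and its means were 9.34, 5.79 and 8.16 on normal diet arrays 1, 2 and 3. They were 5.95 and 5.50 on butyrate arrays 2 and 3. Butyrate array 1 was high, with a mean between those of normal diet arrays 3 and 1 (8.16 and 9.34). The means of the adipocyte list ran from 5.07 to 6.94 on normal diet and from 5.10 to 5.25 with butyrate. Each diet has its own series of array numbers, so diet and array series cannot be told apart in any comparison between diets. In bulk tissue, fewer cells of a type and less RNA per cell cannot be told apart either.

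By limma with Benjamini-Hochberg adjustment at 0.05, 195 of 12393 genes (1.57%) differed between the mutants on high-fat diet with butyrate and those on normal diet. Of these, 71 (0.573%) were higher with butyrate and 124 (1.00%) were lower. The fall was at least 1 on the log2 scale for 39 genes and the rise for 10. The arrays of the groups did not overlap for any of the 195 called genes, nor for 3029 genes overall (24.4%), 1602 higher and 1427 lower. The named rises and falls also had to meet this rule. Its mention for a called gene below thus describes the values and adds no support. At an unadjusted p under 0.05, 1160 genes were higher and 959 lower. Without normal diet array 1, 2 or 3 the count was 64, 45 or 39, and without butyrate array 1, 2 or 3 it was 44, 627 or 66. Butyrate array 2 thus stood apart. It had the highest acinar mean of the butyrate arrays, but it also differed in intestinal genes. The iron absorption gene Slc11a2 read 7.46, 10.53 and 7.96 on butyrate arrays 1, 2 and 3. The brush border genes Akp3 and Anpep read 9.87, 12.08 and 9.18, and 11.57, 9.75 and 11.41. On the 2 arrays of mutants on high-fat diet alone Slc11a2 read 12.03 and 11.02, Akp3 13.53 and 13.23, and Anpep 12.53 and 12.43. Butyrate array 2 was nearer to these than butyrate arrays 1 and 3 for Slc11a2 and Akp3, and farther for Anpep. What sets this array apart was not tested. Without butyrate array 2, 187 of the 195 genes passed among the 627, of which 353 were higher and 274 lower. With array weights 324 were higher and 299 lower, so that which direction held more calls depended on both of these settings. With the acinar mean as a covariate 63 genes passed, all of them among the 195. With that covariate the limma adjusted p was 0.00137 for Stard4, 0.0113 for Ifit1 and 0.0316 for Phgdh. It was 0.0814 for Chac1, 0.0921 for Shmt2 and 0.078 for Ddx60. These genes are described below. With the mutant arrays limited to those with an acinar mean under 9 (butyrate arrays 1 and 3 against normal diet array 2), 6 passed, of which 4 (Cnot6l, Kif5b, Cd99 and Reep3) were among the 195.

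Chac1 and Phgdh, of the amino acid response and serine synthesis, had the first and the third largest falls among the called genes. Of the 15 genes on the list of ATF4 and serine synthesis genes, 3 fell and 0 rose. Chac1, Phgdh and Shmt2 are those genes. ATF4 is a transcription factor that switches on amino acid synthesis and stress genes when amino acids run short. The median difference of the list was -0.41, against 0.007 over all genes tested, and the arrays did not overlap for 9 members, all lower with butyrate, against 11.5% of all genes.

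Chac1, an enzyme that breaks down glutathione and a classical ATF4 target, was at 7.16, 8.84 and 8.59 on normal diet and at 4.64, 4.89 and 5.91 with butyrate. All 3 butyrate arrays lay below all 3 normal diet arrays, and the difference was -3.05 ± 0.63 (SE, limma adjusted p = 0.0405), a level 8.26-fold lower. The promoter of Chac1 is shown because this gene had the largest fall among the 195 called genes. Capitals mark the match to TGATGNAA, the core of the element that ATF4 binds with its C/EBP partners. The sequence is the 250 bases before the RefSeq start on the plus strand of GRCm38.p6, chr2:119350992-119351241, and the match lies on the opposite strand.

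Chac1: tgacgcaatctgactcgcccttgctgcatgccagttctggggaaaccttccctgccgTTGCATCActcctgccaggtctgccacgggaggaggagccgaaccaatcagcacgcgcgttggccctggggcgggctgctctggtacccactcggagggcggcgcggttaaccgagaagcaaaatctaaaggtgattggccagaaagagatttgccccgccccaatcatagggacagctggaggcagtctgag

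Within 250 bases before the start and on either strand, TGATGNAA was present in 4 of the 15 list members (26.7%), which are Asns, Chac1, Fgf21 and Slc7a11. It was present in 2.79% of the 9887 tested genes with a promoter in the table and in 2 of the 97 such genes that fell (2.06%). Counted by promoter, 3.45% of the 32851 in the table held it. The letters were not in these windows of Phgdh or Shmt2. A match of letters describes the window and shows no binding.

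Phgdh, the first enzyme of serine synthesis, was at 9.20, 9.20 and 9.26 on normal diet and at 6.72, 7.57 and 7.27 with butyrate. The groups were far apart, and the difference was -2.03 ± 0.31 (SE, limma adjusted p = 0.0105). Shmt2, the mitochondrial enzyme that passes a one-carbon unit from serine to folate, was at 7.98, 8.28 and 7.79 on normal diet and at 6.93, 7.19 and 6.97 with butyrate, a difference of -0.98 ± 0.19 (SE, limma adjusted p = 0.0327). Asns, which makes asparagine, was 8.07 to 8.46 with butyrate and 9.24 to 9.47 on normal diet, without overlap, but did not pass (-1.13 ± 0.28, SE, limma adjusted p = 0.0691). The 3 calls were not stable to single arrays. The Phgdh call was lost without normal diet array 2 or 3 or butyrate array 1 (limma adjusted p from 0.0548 to 0.0604). The Chac1 call was lost without normal diet array 2 or 3 or butyrate array 1 or 3 (up to 0.156), and the Shmt2 call without any array but butyrate array 2 (up to 0.138) and with probe sets averaged (0.0634). The arrays of mutants on high-fat diet alone read 7.10 and 7.50 for Phgdh and 7.61 and 7.55 for Shmt2. For Phgdh these lie within the range of the butyrate arrays.

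In sterol and lipid control 1 gene stood out by size and by the spread of its arrays. Stard4, which carries cholesterol through the cytosol and is itself switched on when sterols are low, was at 9.82, 9.75 and 9.68 on normal diet and at 7.83, 7.99 and 8.22 with butyrate. The gap was several times the spread within either group, at -1.73 ± 0.14 (SE, limma adjusted p = 0.000229). Its other probe set differed by only -0.11. The 17 cholesterol synthesis enzymes had a median difference of -0.42 with 0 passing, and 15 of them lay below 0, as did 6039 of all 12393 genes. Mvk, mevalonate kinase, was 6.14 to 6.90 with butyrate and 7.16 to 7.52 on normal diet (-0.77 ± 0.20, SE, limma adjusted p = 0.088). Fdft1, squalene synthase, differed by the same amount (-0.77 ± 0.28, SE, adjusted p = 0.186). Among the 11 genes of sterol regulation, uptake and efflux, Stard4 was the one called. Abca1, the cholesterol exporter, read 10.11, 8.32 and 9.94 with butyrate against 7.75, 7.91 and 8.48 on normal diet (1.41 ± 0.42, SE, limma adjusted p = 0.124). Without butyrate array 2, Abca1 and Mvk passed (0.00503 and 0.0264).

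Among genes of fat burning, Ppara and Ppargc1b fell while Ehhadh rose. Ppara, the nuclear receptor that senses fatty acids, was at 7.21, 7.56 and 8.04 on normal diet and at 6.07, 6.41 and 5.87 with butyrate (-1.48 ± 0.24, SE, limma adjusted p = 0.0148). Ppargc1b, a coactivator of mitochondrial and lipid genes, was at 8.43, 8.58 and 8.68 on normal diet and at 6.89, 7.20 and 7.37 with butyrate (-1.41 ± 0.16, SE, adjusted p = 0.00304). Both were also below their levels on high-fat diet alone, which were 8.31 and 9.11 for Ppara (limma adjusted p = 0.000138 for butyrate against high-fat diet) and 8.68 and 8.93 for Ppargc1b (0.000217).

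Ehhadh, a peroxisomal enzyme of fatty acid oxidation and a target of PPAR alpha, went the other way, from 9.22, 9.09 and 9.14 on normal diet to 9.92, 9.82 and 9.66 with butyrate (0.65 ± 0.10, SE, limma adjusted p = 0.0105). On high-fat diet alone it read 9.66 and 9.76, inside the range with butyrate. Of the 23 genes on the list of fatty acid oxidation and PPAR alpha targets, Ehhadh rose and Ppara fell, and the median difference was 0.15. On this list 19 genes lay above 0, as did 6354 of all 12393 genes. The arrays did not overlap for 9 members higher with butyrate and 1 lower, against 12.9% and 11.5% of all genes. Acot2, a mitochondrial thioesterase on the same list, was 5.51 to 5.87 with butyrate against 4.94 to 5.04 on normal diet and did not pass (limma adjusted p = 0.0703). The Ppara call was lost without normal diet array 2 or 3 or butyrate array 1 or 3 (up to 0.071), and the Ehhadh call without normal diet array 2 or 3 or butyrate array 1 (up to 0.0652).

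Of the 21 genes of fat uptake and chylomicron assembly, 1 rose. Slc27a4, a fatty acid transport protein of enterocytes, read 11.12, 11.20 and 11.16 on normal diet and 11.66, 11.39 and 11.63 with butyrate (0.40 ± 0.08, SE, limma adjusted p = 0.0405). This small rise was lost without any array but butyrate array 2 (up to 0.146). Acsl5, which activates long-chain fatty acids, was 12.59 to 12.64 with butyrate and 12.27 to 12.47 on normal diet (limma adjusted p = 0.111). The plot of serine and lipid genes by array shows these levels in all 6 groups.

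**Figure D1:**
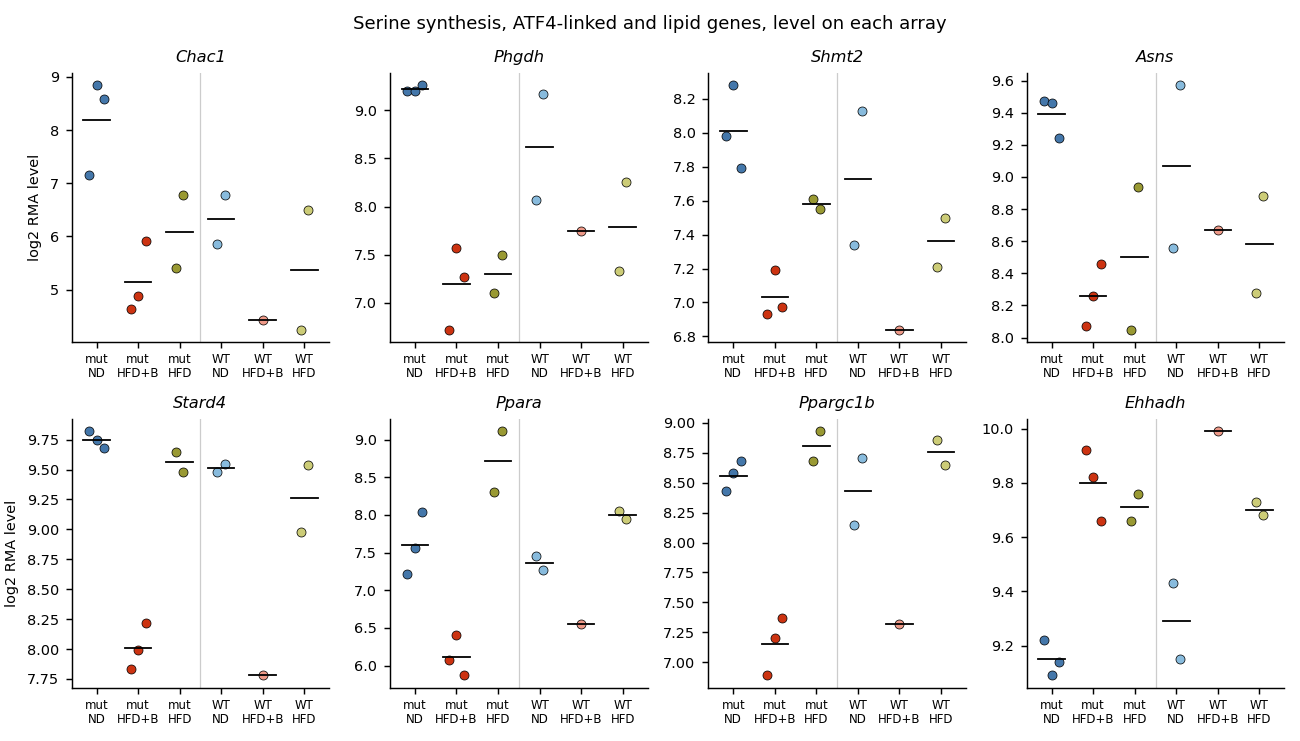
Log2 RMA level (vertical axis) of 8 genes on each of the 13 arrays, by genotype (mut, mutant; WT, wild type) and diet (ND, normal diet; HFD, high-fat diet; HFD+B, high-fat diet with butyrate); points are arrays and bars are group means. The 3 butyrate mutants lie below the 3 normal diet mutants in every panel but that of Ehhadh, where they lie above.

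Klf9, a zinc finger factor that responds to hormones and daily rhythm, was at 10.13, 10.13 and 10.43 on normal diet and at 8.93, 8.53 and 8.83 with butyrate (-1.46 ± 0.16, SE, limma adjusted p = 0.00257). Nfix, a nuclear factor I protein, fell from 7.58 to 7.71 on normal diet to 5.87 to 6.53 with butyrate (-1.43 ± 0.17, SE, limma adjusted p = 0.00304). Bcl11b, a zinc finger factor best known from T cell development, fell from 7.17 to 7.39 on normal diet to 5.58 to 6.33 with butyrate (-1.36 ± 0.17, SE, limma adjusted p = 0.00373). For all 3 the butyrate arrays lay wholly below the normal diet arrays. Of the 20 markers of T cells and intraepithelial lymphocytes 0 passed, with a median of 0.09.

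Smarcc1, a core subunit of the SWI/SNF chromatin remodelling complex, was at 7.32, 7.41 and 7.48 on normal diet and at 6.05, 6.08 and 6.19 with butyrate (-1.29 ± 0.10, SE, limma adjusted p = 0.000229). Hipk2, a kinase of transcription factors (-1.31 ± 0.13), and Sox6, a factor of the SOX family (-1.27 ± 0.12), fell with limma adjusted p of 0.00108 and 0.000575. These 3 genes were picked after their values were seen, because they passed without each array in turn. The other probe set of Sox6 differed by only -0.08 and that of Smarcc1 by -0.32, and those of Hipk2 ran from -0.89 to 0.14. Malat1, a long noncoding RNA of nuclear speckles, was at 6.59, 6.91 and 6.73 on normal diet and at 5.01, 5.59 and 5.41 with butyrate (-1.40 ± 0.17, SE, limma adjusted p = 0.00304). On high-fat diet alone Malat1 read 7.82 and 7.72, above both groups. Cnot6l, a subunit of the CCR4-NOT complex that removes the poly(A) tails of messenger RNA, fell by 1.68 on the log2 scale (SE 0.14, limma adjusted p = 0.000229) by its tested probe set. Its other 3 probe sets went the opposite way, by 0.23 to 0.43, and the mean of all 4 did not pass (limma adjusted p = 0.228).

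Of the 10 intestinal identity factors, Hnf4g rose and Klf5 fell. Hnf4g, a nuclear receptor that keeps enterocyte genes active, was at 8.21, 8.08 and 7.90 on normal diet and at 8.82, 9.17 and 8.54 with butyrate (0.78 ± 0.17, SE, limma adjusted p = 0.047). Klf5, a factor of proliferating crypt cells, was at 11.64, 11.70 and 11.56 on normal diet and at 11.17, 11.22 and 11.24 with butyrate (-0.42 ± 0.08, SE, limma adjusted p = 0.0327). The arrays did not overlap for either gene. Their second probe sets differed in the same directions, by 0.84 and -1.71. The Klf5 call was lost without any array but butyrate array 2 (up to 0.144). The Hnf4g call was lost without any array but butyrate array 3 (up to 0.186, and 0.0504 without butyrate array 2).

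Clca3b, a member of the family of calcium-activated chloride channel regulators, had the second largest fall among the called genes, from 8.11, 8.47 and 7.90 on normal diet to 5.72, 6.21 and 5.33 with butyrate (-2.40 ± 0.30, SE, limma adjusted p = 0.00304). Rasal2, a GTPase activating protein, fell from 5.07, 5.53 and 5.78 to 3.09, 3.77 and 3.76 (-1.92 ± 0.23, SE, limma adjusted p = 0.00304). Dusp8, a phosphatase of stress-activated kinases, fell from 6.12 to 6.41 on normal diet to 4.18 to 4.92 with butyrate (-1.61 ± 0.20, SE, limma adjusted p = 0.00349). In each of these 3 genes the lowest normal diet array lay well above the highest butyrate array.

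Kif5b, the heavy chain of a kinesin motor, read 10.07 on all 3 normal diet arrays and 8.39, 8.57 and 8.35 with butyrate (-1.64 ± 0.12, SE, limma adjusted p = 0.000229). Cd99, a surface glycoprotein, fell from 8.15, 8.57 and 8.38 to 6.66, 7.29 and 6.98 (-1.39 ± 0.16, SE, limma adjusted p = 0.00272). Ccnd2, the D-type cyclin 2 and another gene picked after its values were seen, fell from 10.19 to 10.35 on normal diet to 8.79 to 9.39 with butyrate (-1.21 ± 0.15, SE, limma adjusted p = 0.00304).

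Of the 18 genes that report on the ERK pathway, a kinase cascade that growth factors switch on, 1 fell and 0 rose, with a median of -0.22. Hbegf, a ligand of the EGF receptor, read 6.55, 6.51 and 6.79 on normal diet and 5.82, 6.08 and 5.38 with butyrate (-0.86 ± 0.18, SE, limma adjusted p = 0.0453). The feedback inhibitor Spry1 (-0.70, limma adjusted p = 0.117) and Phlda1 (-1.16, limma adjusted p = 0.17) did not pass, except without butyrate array 2 (0.025 and 0.0147). Cd44, a surface receptor of crypt cells, was the gene called of the 15 crypt and Wnt genes, at 8.18, 7.72 and 7.95 on normal diet and 6.89, 6.94 and 6.74 with butyrate (-1.09 ± 0.23, SE, limma adjusted p = 0.0462). The Hbegf and Cd44 calls were each lost without any array but butyrate array 2 (up to 0.175 and 0.152). Both were also lost with probe sets averaged (0.16 and 0.138), the second probe sets differing by -0.15 and -0.37. Of the 29 proliferation genes 0 passed, with a median of -0.01, and 1 rose and 1 fell at an unadjusted limma p under 0.05. Of all 12393 genes 1160 were higher and 959 lower at that p.

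Ifit1, which binds viral RNA that lacks the normal cap, was at 6.61, 6.76 and 6.92 on normal diet and at 8.53, 8.01 and 8.14 with butyrate (1.47 ± 0.18, SE, limma adjusted p = 0.00313). Ddx60, a helicase that aids the sensing of viral RNA, was at 6.06, 5.91 and 5.78 on normal diet and at 7.59, 7.11 and 6.89 with butyrate (1.28 ± 0.27, SE, limma adjusted p = 0.0418). Trim34a, of the family of tripartite motif proteins that interferon induces, was at 6.46, 6.21 and 6.13 on normal diet and at 7.28, 7.02 and 7.33 with butyrate (0.94 ± 0.13, SE, limma adjusted p = 0.00464). Each gene was higher on every butyrate array than on every normal diet array. The Ddx60 call was lost without any array but butyrate array 2 (up to 0.158).

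The promoters of Ifit1 and Ddx60 are shown because, among the interferon-induced genes that rose, these hold the core of the element bound by interferon-activated STAT and IRF factors, which is a pair of GAAA repeats with any 2 bases between them. Capitals mark the matches. Each sequence is the 150 bases before the RefSeq start on the plus strand of GRCm38.p6, chr19:34640739-34640888 for Ifit1, where both matches lie on the opposite strand, and chr8:61927937-61928086 for Ddx60, where both lie on the strand shown.

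Ifit1: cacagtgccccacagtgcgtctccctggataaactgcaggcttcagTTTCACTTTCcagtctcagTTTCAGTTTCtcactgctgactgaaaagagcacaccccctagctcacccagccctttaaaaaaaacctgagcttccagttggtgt
Ddx60: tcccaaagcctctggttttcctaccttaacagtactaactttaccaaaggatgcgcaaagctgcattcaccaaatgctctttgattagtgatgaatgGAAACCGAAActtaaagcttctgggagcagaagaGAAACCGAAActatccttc

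This pair of GAAA repeats was sought within 250 bases before the start and on either strand. It was present in 12 of the 23 interferon list members with a promoter in the table (52.2%). Of the 9887 tested genes with a promoter 3.35% held it, as did 2.98% of all promoters. Among the 58 genes that rose and have a promoter there, 3 (5.17%) held it: Ifit1, Ddx60 and Ccnt2. Trim34a had no match in its window.

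Of the 29 genes on the interferon list, which does not hold Ddx60 or Trim34a, 1 (Ifit1) rose and 0 fell, with a median of 0.49. The arrays did not overlap for 17 of them, all higher with butyrate, against 12.9% of all genes. Usp18, which dampens interferon signalling, averaged 5.96 on normal diet (SD 0.05, n = 3) and read 8.41, 7.16 and 7.27 with butyrate and did not pass (1.65 ± 0.40, SE, limma adjusted p = 0.0664, and 0.0338 without butyrate array 2). Nor did Ifih1, a sensor of double-stranded RNA (0.49, limma adjusted p = 0.0627), or Oas2, an oligoadenylate synthetase (0.59, limma adjusted p = 0.0667). The mean of the list was 6.52 to 6.58 on the normal diet mutants, the lowest of any group, against 6.97 to 7.32 with butyrate and 7.19 to 7.29 on high-fat diet alone. On the wild-type arrays it was 7.29 and 7.95 on normal diet and 7.46 with butyrate. Ifit1 was lower with butyrate than on high-fat diet alone (9.06 and 9.02, limma adjusted p = 0.0161).

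Other immune genes gave few calls. The 9 genes of MHC class II presentation had a median of 0.66 with 0 passing, while their median difference on the wild-type arrays was -0.95. H2-Ab1 read 9.36, 9.63 and 9.38 on normal diet and 11.46, 9.66 and 10.34 with butyrate (limma adjusted p = 0.201), and H2-Aa had an adjusted p of 0.202. Without butyrate array 2 both passed (0.0369 and 0.0374). Of the 22 macrophage and dendritic cell markers 1 passed, with a list median of 0.29. Cd209a, a lectin of dendritic cells, was at 5.28, 5.10 and 5.51 on normal diet and at 6.23, 5.92 and 5.96 with butyrate (0.73 ± 0.16, SE, limma adjusted p = 0.0499). The call was lost without any array but butyrate array 2 (up to 0.181). Itgax and Mrc1, further markers of these cells, differed by 0.76 and 0.89 (limma adjusted p = 0.0634 and 0.0691), and both passed without butyrate array 2 (0.00418 and 0.00503).

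Among genes of absorption and metabolism, Dio1, the enzyme that converts thyroid hormone to its active form, rose from 7.89, 8.25 and 7.79 on normal diet to 9.21, 9.36 and 9.53 with butyrate (1.39 ± 0.21, SE, limma adjusted p = 0.01). Bco1, which cleaves dietary carotene to make vitamin A, rose from 4.16, 4.18 and 4.51 to 5.21, 5.19 and 6.18 (1.24 ± 0.24, SE, limma adjusted p = 0.0327), the 1 gene called of 14 vitamin A genes. Dao, a peroxisomal oxidase of D-amino acids, rose from 5.52, 5.25 and 5.53 to 6.96, 6.14 and 6.73 (1.18 ± 0.23, SE, limma adjusted p = 0.0321). Butyrate array 3 read highest for Dio1 and Bco1, and butyrate array 2 lowest for Dao. On high-fat diet alone Bco1 read 4.57 and 4.19, close to its normal diet levels, whereas Dao read 7.10 and 6.53, within the range with butyrate. The Dio1 call was lost without normal diet array 3 (0.0612), and the Bco1 and Dao calls without any array but butyrate array 2 (up to 0.133 each).

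Txnrd1, thioredoxin reductase and a target of the antioxidant factor NRF2, read 10.65, 10.80 and 10.62 on normal diet and 11.17, 11.17 and 11.19 with butyrate (0.49 ± 0.09, SE, limma adjusted p = 0.0327). It was the 1 call among 17 glutathione and NRF2 genes, whose median was 0.08. Sesn1, a p53 target that restrains the growth kinase mTORC1, read 9.11, 9.15 and 8.91 on normal diet and 10.16, 9.55 and 10.05 with butyrate (0.86 ± 0.16, SE, limma adjusted p = 0.0277), the 1 call among 12 p53 targets. The other probe sets of both genes differed in the same direction, but those of Txnrd1 overlapped between the groups, and with probe sets averaged neither gene passed (limma adjusted p = 0.191 for Txnrd1 and 0.0515 for Sesn1). Both calls were lost without any array but butyrate array 2 (up to 0.138 and 0.12).

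**Figure D2:**
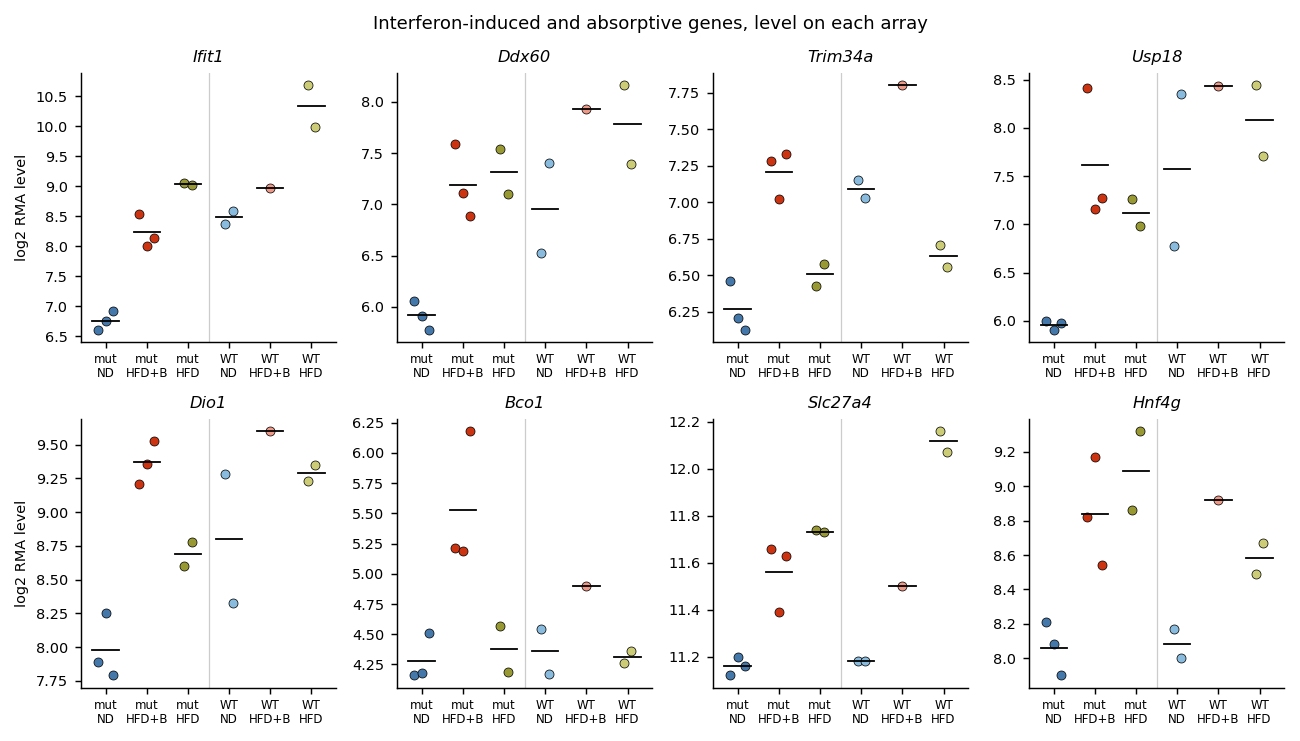
Log2 RMA level (vertical axis) of 8 interferon-induced and absorptive genes on each of the 13 arrays, by genotype and diet, labelled as in the plot of serine and lipid genes; points are arrays and bars are group means. Every gene is higher on the 3 butyrate mutants than on the 3 normal diet mutants, and Ifit1 on the normal diet mutants (6.61 to 6.92) is below all other groups.

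The largest rise among the called genes was in Hba-a2, an alpha globin gene, from 4.96, 4.82 and 4.30 on normal diet to 6.72, 6.05 and 6.40 with butyrate (1.69 ± 0.24, SE, limma adjusted p = 0.00703). It has a near-identical copy, Hba-a1, whose own probe set differed by 0.00, so which gene the signal belongs to is uncertain. The 3 measured red blood cell markers had a median of 0.00 and 0 passed. Other transcripts whose part in this tissue is less clear also rose. Exosc8, a subunit of the RNA exosome, was at 5.77, 5.65 and 5.92 on normal diet and at 7.02, 6.54 and 7.69 with butyrate (1.30 ± 0.26, SE, limma adjusted p = 0.0327). Cacna1d, a voltage-gated calcium channel (1.19), Mpp4 (1.29), Kansl1l (1.09), Tmem229b (0.99), Pkd2l2 (0.99), Snap91 (0.92) and Nabp1 (0.89), a single-strand DNA binding protein, are also among the 15 largest called rises (limma adjusted p from 0.00373 to 0.0448). Of the rises in this paragraph, those of Hba-a2 and Pkd2l2 were kept without each array in turn. The call of Snap91 was lost without normal diet array 2 (0.0548), and those of the others without at least 3 arrays (adjusted p up to 0.153). For Pkd2l2 the second probe set differed by -0.21. With probe sets averaged, Pkd2l2, Kansl1l and Cacna1d did not pass (limma adjusted p = 0.0802, 0.0666 and 0.0516).

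Several pathways that butyrate or fat are known to touch gave no call. With 1.57% of all genes called, 0 calls in a list this short, here or in the other lists, say little about a pathway. Of the 8 histone deacetylases 0 passed, with a median of -0.02. At an unadjusted limma p under 0.05, 1 of them was higher, as were 1160 of all 12393 genes. Hdac2 had the smallest p of them, at 6.43 to 6.98 on normal diet and 7.01 to 7.33 with butyrate (limma adjusted p = 0.219). Of the 12 genes of butyrate transport, sensing and use 0 passed, with a median of -0.16. Acat1, which closes ketone body breakdown, read 10.56, 10.51 and 10.61 on normal diet and 11.06, 10.75 and 11.08 with butyrate (limma adjusted p = 0.0776), and passed without butyrate array 2 (0.012).

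Of the 18 mitochondrial respiration genes 0 passed, while 17 lay above 0 with a median of 0.20 and 12 were higher at an unadjusted p under 0.05. Over all 12393 genes 6354 lay above 0 and 1160 were higher at that p. Ogdh and Cox5a, a citric acid cycle enzyme and a subunit of cytochrome oxidase, differed by 0.34 and 0.29 (limma adjusted p = 0.0749 and 0.0974). Of the 19 circadian clock genes 0 passed, with a median of 0.19. Per2 (0.77) and Per3 (0.66), which repress the clock, had limma adjusted p of 0.0601 and 0.0878. Ogdh, Per2 and Per3 passed without butyrate array 2 (0.0422, 0.0294 and 0.0289). Among 5 Paneth cell, 7 goblet cell, 16 enteroendocrine and 14 brush border digestion genes 0 passed. The median of the Paneth list was 0.39, and its mean ran from 7.32 to 9.83 with butyrate against 8.07 to 8.63 on normal diet.

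**Figure D3:**
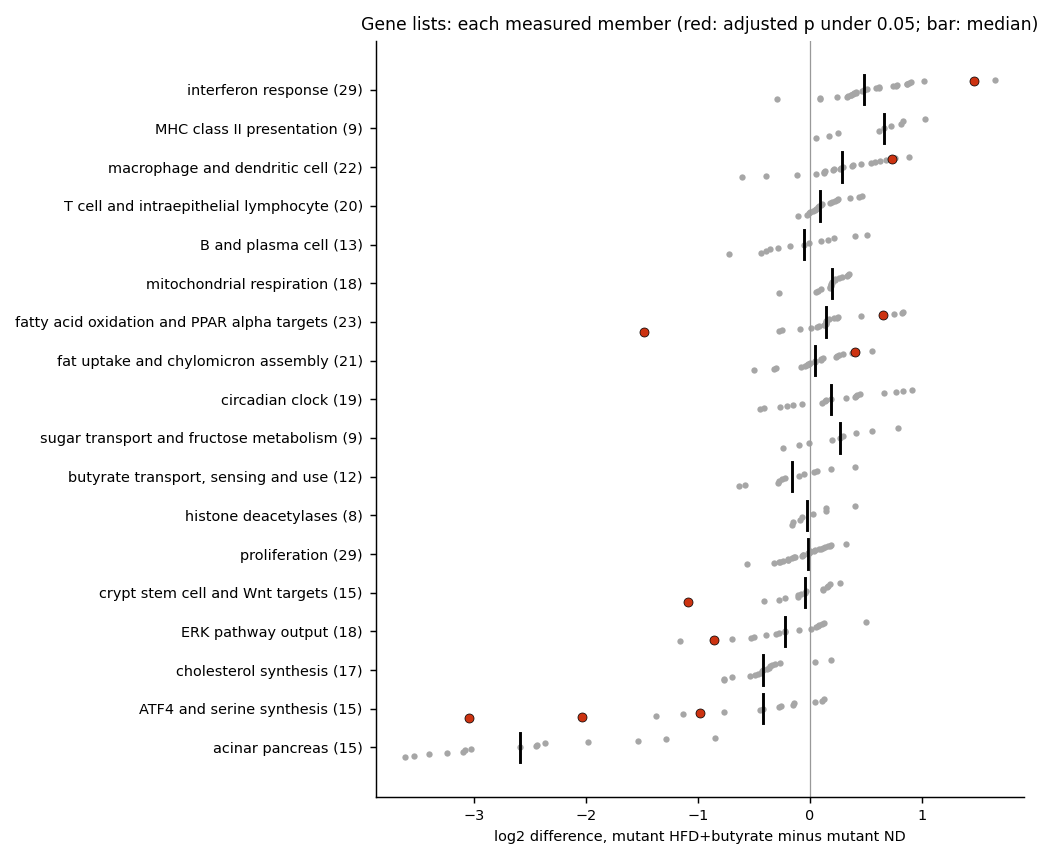
Log2 difference between mutants on high-fat diet with butyrate and mutants on normal diet (horizontal axis) for each measured member of 18 gene lists, with the number measured in parentheses; red points passed limma at an adjusted p of 0.05, and black bars are list medians. The medians of the interferon and MHC class II lists lie at 0.49 and 0.66, those of the ATF4 and cholesterol lists at -0.41 and -0.42, and the acinar pancreas list at -2.59 with 0 of 15 passing.

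A gene read by several probe sets offers a check within the same arrays, which shares their RNA. Of the 195 called genes 105 had more than 1 probe set, with 218 other probe sets in all. Of these 160 differed in the direction of the tested one, 82 of them without overlap between the groups. The other 58 differed in the opposite direction, 12 of them without overlap. Over all genes tested, by 1 probe set each, the arrays did not overlap for 12.9% higher and 11.5% lower. How often the probe sets of uncalled genes share a direction was not counted, so the strength of this check is not known. For 67 genes all other probe sets had the same direction, and for 17 none did. Among the 17 are Apbb2 (0.12 and 0.36), Mfap3 (0.05) and Sfxn1 (0.26), whose falls passed without each array in turn. For Clcn3, another such fall, the other probe sets ran from -1.05 to 0.74. The other probe sets of Phgdh differed by -1.63 to -0.69, those of Shmt2 by -0.77 to -0.35, those of Cd99 by -1.24 to -1.14 and those of Nfix by -1.41 to -0.13. For Klf9, Kif5b and Malat1 the others ran from near 0 (-0.02, -0.02 and -0.12) to -1.54, -1.34 and -1.04.

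**Figure D4:**
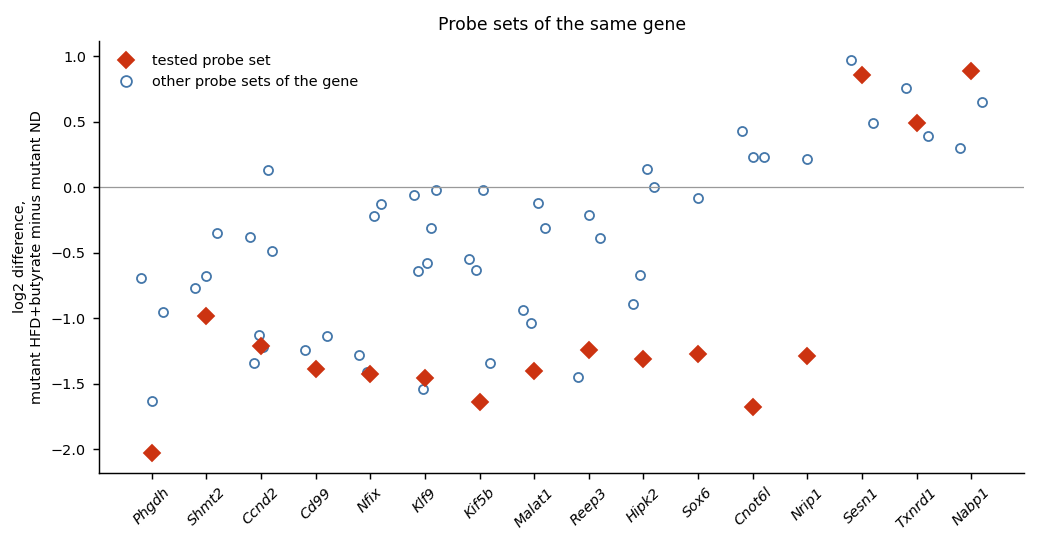
Log2 difference between mutants on high-fat diet with butyrate and mutants on normal diet (vertical axis) for the tested probe set (diamond) and the other probe sets (open circles) of 16 called genes. The probe sets of Phgdh, Shmt2, Cd99 and Sesn1 all lie on 1 side of 0, and those of Cnot6l lie on both sides (-1.68 against 0.23 to 0.43).

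Mutants on high-fat diet alone show where the butyrate arrays lie against the same fat without it. In that comparison 2685 genes (21.7%) differed by limma, 1597 (12.9%) higher with butyrate and 1088 (8.78%) lower. It shares the butyrate arrays with the comparison against normal diet, so the values are set side by side only. Zbtb7a, a repressor of transcription, read 5.49 to 5.65 on normal diet, 4.73 to 4.93 with butyrate, and 8.76 and 8.48 on high-fat diet alone (-3.80 ± 0.15 against high-fat diet, SE, limma adjusted p = 2.28e-07, and -0.77 ± 0.13 against normal diet, adjusted p = 0.0216). Kdm5a, a histone demethylase, read 4.04 to 4.31 on normal diet, 3.26 to 3.64 with butyrate, and 6.63 and 6.71 on high-fat diet alone. Nrip1, a corepressor of nuclear receptors, and Akap9, a scaffold of kinase A, were likewise below normal diet with butyrate (-1.29 and -0.83) and farther below high-fat diet alone (-3.07 and -3.04). For these 4 genes high-fat diet alone read highest, normal diet came next and butyrate lowest. The other probe set of Nrip1 differed by 0.22 from normal diet, and the mean of both did not pass (limma adjusted p = 0.248). Against normal diet, the Akap9 call was lost without any array but butyrate array 3 (up to 0.151), those of Zbtb7a and Kdm5a without any but butyrate array 2 (up to 0.106 and 0.107), and that of Nrip1 without any but normal diet array 1 or butyrate array 2 (up to 0.071).

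Kansl1l and Exosc8 showed the mirror image, with the lowest levels on high-fat diet alone. Kansl1l read 5.03 and 5.21 there, 6.16 to 6.40 on normal diet and 6.98 to 7.55 with butyrate (2.24 ± 0.22 against high-fat diet, SE, limma adjusted p = 0.000113). Myo7a, an unconventional myosin, differed between butyrate and high-fat diet alone (2.19 ± 0.17, SE, limma adjusted p = 2.76e-05) while its 8.17 to 8.85 with butyrate spanned the 8.36 to 8.51 on normal diet. Cybrd1, the duodenal iron reductase, read 5.79, 8.72 and 5.93 with butyrate against 11.44 and 9.76 on high-fat diet alone (limma adjusted p = 0.00465), with butyrate array 2 apart from the other two. That call was lost without high-fat array 1 (limma adjusted p = 0.0581), as were those of Cbr3, a carbonyl reductase, and Clec1b, a platelet receptor (2.10 and 2.55, with 0.0574 and 0.0577 without it). The count of 2685 was 1317 and 1456 without high-fat array 1 and 2.

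The wild-type arrays, which lie in the same array series as the mutant ones, moved much as the mutants did for the called genes. For 186 of the 195 (95.4%) the wild-type butyrate array lay beyond both wild-type normal diet arrays in the direction seen in mutants, against 51.3% of all genes. The share was 69 of the 71 rises and 117 of the 124 falls. The median wild-type difference was 0.76 for the rises (0.67 in mutants) and -0.70 for the falls (-0.81 in mutants). With 1 wild-type butyrate array and diet tied to array series, this similarity cannot be split between diet and series.

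By gene, Stard4 differed by -1.73 in both genotypes, with a difference between genotypes of 0.00 ± 0.26 (SE). Kif5b differed by -1.64 in mutants and -1.39 in wild type (difference of -0.24 ± 0.21, SE). Ifit1 rose by 1.47 in mutants and stood 0.49 higher on the wild-type array (0.97 ± 0.33, SE, limma adjusted p = 0.631). Phgdh differed by -2.03 in mutants and -0.87 in wild type (-1.17 ± 0.55, SE, adjusted p = 0.662). By limma the diet difference itself differed between genotypes for 0 genes (931 at an unadjusted p under 0.05), for 4 and 12 genes without wild-type normal diet array 1 and 2, and for 1 gene without mutant butyrate array 2. Where a wild-type normal diet array is left out, 1 wild-type array stands against 1 and is assumed to vary like the other groups. A missed threshold with 1 array does not show that the genotypes act alike.

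Ubd, a ubiquitin-like modifier induced by cytokines, had the largest difference between genotypes among the genes with the smallest p. It read 6.31 and 8.16 on wild-type normal diet and 3.54 on the wild-type butyrate array, against 3.81 to 3.88 and 3.55 to 4.22 on the mutant arrays (3.79 ± 0.64, SE, limma adjusted p = 0.456). Without wild-type normal diet array 1 or 2 the adjusted p of Ubd was 0.000533 and 0.0173, but the wild-type side is then 1 array against 1, and all of the spread comes from the other groups. Agmat and Ccl3 followed in the same direction (1.45 and 1.21, limma adjusted p = 0.631 each), and Pcyt1a, an enzyme of phosphatidylcholine synthesis, Vmn1r148 and Trpc1 in the other (-1.20, -1.23 and -1.76, limma adjusted p = 0.456 each).

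**Figure D5:**
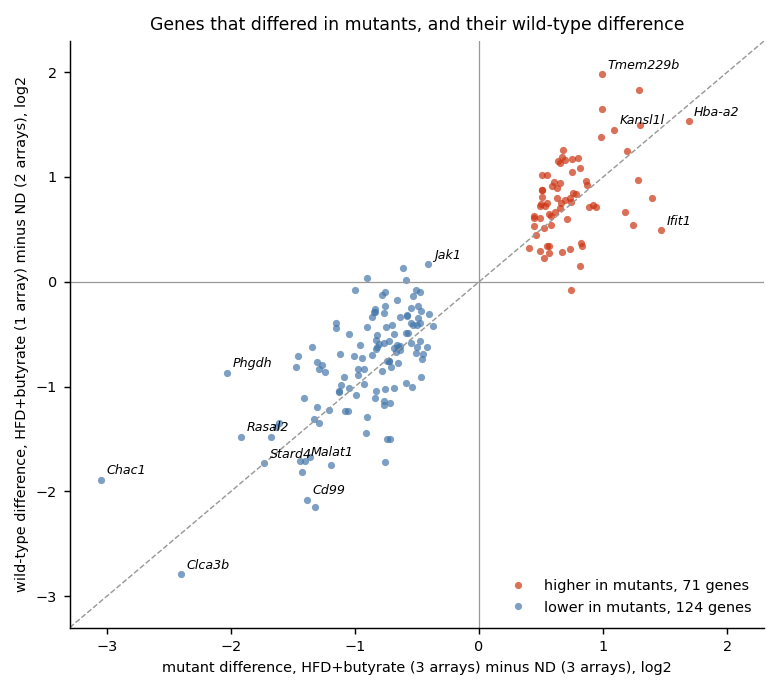
Log2 difference between high-fat diet with butyrate and normal diet for the 195 called genes, in mutants (horizontal axis, 3 against 3 arrays) and in wild type (vertical axis, 1 against 2 arrays); the dashed line marks equal differences. Of the 195 points 190 lie in the quadrants of equal sign, among them Stard4 on the dashed line, and Jak1 is 1 of the 5 outside them.

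In all, 35 of the 195 genes passed without each of the 6 arrays in turn, 5 higher with butyrate and 30 lower. The 5 are Hba-a2, Ifit1, Pkd2l2, Trim34a and the gene model Gm20559 (0.98 ± 0.13, SE, limma adjusted p = 0.00436). Among the 30 are Clca3b, Rasal2, Stard4, Cnot6l, Kif5b, Dusp8, Klf9, Nfix, Ppargc1b, Malat1, Cd99, Bcl11b, Hipk2, Smarcc1, Sox6, Reep3 and Ccnd2. Reep3, which shapes the endoplasmic reticulum, was at 9.30 to 9.35 on normal diet and at 7.90 to 8.29 with butyrate (-1.24 ± 0.10, SE, limma adjusted p = 0.000229). Of the 15 largest rises and 15 largest falls named among the called genes, 16 passed in all 6 fits, and the highest adjusted p among the 30 was 0.158.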

How the data were processed

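Total RNA (200 ng) from mouse duodenum was labelled and hybridised to 1 Affymetrix array per sample. The deposited log2 values were made by RMA in Affymetrix Expression Console 1.1, per the submitters' processing notes. No label or header names the genome build. The labelling kit in the protocols is one for whole transcripts, although the probe sets carry names of a 3' array design. Of 22690 probe sets, 20380 had exactly 1 symbol, and for each of 12393 genes the one with the highest mean over 13 arrays was used.

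Tests used limma 3.58.1 in R 4.3.3 (6 group means over 13 arrays, 7 residual degrees of freedom, eBayes with trend), two-sided, with Benjamini-Hochberg adjustment over all genes. Groups came from the labels, and the p-values reflect only how far these samples, called mice in the design text, differ within a group. There were 3 comparisons, and the precision is limited by the number of arrays. In any pair of arrays at most 408 probe sets had equal values to 3 decimals. The fit was tested on simulated data.

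Named genes were the 15 largest rises and falls past the threshold without overlap, leaving out gene models and clone codes, up to 4 members per list by p, and the 5 largest (or 3 smallest p) in the other comparisons. Genes and motifs outside this rule were picked after their values were seen. The members and the 51 lists (653 of 763 genes measured) were chosen with earlier results of these data known. Promoters are from RefSeq (GRCm38.p6). The gene altered in the mutants is not reported here.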

Additional observations from a re-analysis of the deposited data

Results flagged for a closer look

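For 3 called genes the wild-type butyrate array lay beyond both wild-type normal diet arrays in the direction opposite to the mutants. Epb41l2, a protein of the membrane skeleton, read 7.77, 7.75 and 7.88 with butyrate against 8.42, 8.32 and 8.45 on normal diet in mutants. Its wild-type difference was 0.02, with 7.88 on the butyrate array against 7.85 and 7.88 on normal diet. For Epb41l2 the wild type thus hardly differed, rather than moving the opposite way. Jak1, a kinase of cytokine receptors, read 8.71, 8.66 and 8.62 against 8.95, 9.14 and 9.15 in mutants (-0.41 ± 0.09, SE, limma adjusted p = 0.0495), with a wild-type difference of 0.17. Uhrf1bp1l differed by -0.61 in mutants and by 0.13 in wild type. The test of the difference between genotypes gave a limma adjusted p of 0.631 for each. The mutant calls of all 3 genes were lost without single arrays (adjusted p up to 0.187) and with probe sets averaged (0.189 to 0.432).

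Probe sets outside the table of named genes also carried differences. Of 1555 probe sets with no symbol 36 (2.32%) passed limma over all probe sets, and so did 23 of 691 with several symbols (3.33%), against 540 of 20380 with 1 symbol (2.65%). Their genes are not named here.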

How the results depend on the processing

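Against normal diet, the count of 195 was 165 to 210 with quantile normalization, without dim genes, with probe sets averaged per gene and without an intensity trend, and 132 with only the arrays of the groups compared. It was 623 with array weights, 49 with a minimum log2 change of 1, 63 with the acinar mean as a covariate, 39 to 627 with 1 array left out and, chosen after seeing the data, 6 with low-acinar mutant arrays alone. Replicate numbers did not pair the arrays (correlations of deviations of 0.13, -0.31 and -0.25 for the same number), and the replicate block gave 45. Against high-fat diet alone, 2685 became 395 with the minimum change, 330 with the replicate block (arrays 1 and 2) and 1317 to 3041 with 1 array left out. The difference between genotypes gave 0 genes, and 0 to 12 with 1 array left out. Fewer arrays in a fit also leave fewer residual degrees of freedom. None of the 74 genes described against normal diet changed sign under any of these alternatives. Where the arrays of the groups do not overlap, leaving out arrays cannot change the sign, so this was largely fixed in advance. Over the alternative fits of these 74 genes, a call was lost 268 times and gained 31 times. Signal near background was not filtered in the main fit, so small differences of dim genes are the least certain. Leaving out the single wild-type butyrate array gives no value.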
